A study of Homo sapiens with 15 samples.

Results

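Asparagine, glutamine, alanine, aspartate and proline are amino acids that a cell can build from its own carbon and nitrogen, and 7 genes of these last steps were followed here across all arrays of a study of a human monocytic line. The genes were ASNS, GLUL, GPT2, GOT1, GOT2, PYCR1 and ALDH18A1. Every non-control probe set that the platform annotation assigned to 1 of these genes alone was taken, whatever its value. This gave 11 of the 54613 non-control probe sets on the array, for 6 of the 7 genes. No probe set is assigned to GPT2, the mitochondrial alanine aminotransferase, in the annotation used here, so GPT2 was not analysed here. The group was chosen from earlier results of these same arrays, in which the differences under infliximab were known. Member values with infliximab against untreated cells and against CDP870 are therefore a description, with no p-value. Their calls are counted beside the share over all probe sets. The genes called are named, with settings that change a call, and nothing is supported with them. The other comparisons did not guide the choice and are tested. Infliximab 24 h minus 6 h, the interaction and CDP870 minus untreated share arrays with the comparisons that did. Their tests are thus not independent of the choice.

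The study exposed THP-1 cells to 1 of 2 blockers of tumour necrosis factor and measured RNA on Affymetrix arrays. THP-1 is an established line grown from an acute monocytic leukaemia. Infliximab is a chimeric IgG1 antibody with its Fc part, and CDP870 is the development name of certolizumab pegol, a PEGylated Fab' fragment without Fc. The 5 groups of 3 arrays were untreated cells at 0 h, cells given infliximab for 6 h or 24 h, and cells given CDP870 for 6 h or 24 h. The series' design text names the 3 arrays of a group biological replicates. Each array carries a number that runs on through the study (2 to 4 untreated, 8 to 10 infliximab for 6 h, 5 to 7 infliximab for 24 h, 14 to 16 CDP870 for 6 h, 11 to 13 CDP870 for 24 h), and these numbers name the arrays below. The sources used here give no concentrations. Untreated cells were taken at 0 h alone, so time in culture and treatment cannot be told apart in a comparison with them. The comparison of the agents at equal times is free of that limit. All groups are 1 cell line.

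ASNS, asparagine synthetase, moves the amide nitrogen of glutamine onto aspartate, and its transcription is a classical readout of amino acid shortage and of the unfolded protein response. Shortage activates the kinase GCN2 (gene EIF2AK4) and endoplasmic reticulum stress the kinase PERK (EIF2AK3). Both phosphorylate eIF2α, which favours translation of the transcription factor ATF4, and ATF4 binds the ASNS promoter with C/EBP partners. GLUL, glutamine synthetase, joins ammonia to glutamate. GOT1 in the cytosol and GOT2 in mitochondria transfer amino groups between glutamate and oxaloacetate and so make aspartate. ALDH18A1 turns glutamate into the semialdehyde from which proline and ornithine are made, and PYCR1 reduces the cyclised product to proline. ASNS is well known in leukaemia, since lymphoblasts with little of it depend on outside asparagine, which asparaginase removes.

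The ASNS promoter is shown because the member with the largest difference is regulated through known letters in it. Promoters were read from RefSeq (GRCh38.p14) as the 250 bases before each annotated start, on the strand of the gene, and positions are counted back from the start. Entries were at hand for ASNS, GLUL, GOT1, GOT2 and ALDH18A1. Capitals mark matches to TGATGNAA, the core of the C/EBP-ATF response element (either strand), and to GTTACA, the second element of the nutrient-sensing unit of ASNS (either strand). The ASNS window is chr7:97872409-97872658 on the minus strand, the GOT1 window is chr10:99430625-99430874 on the minus strand, and the ALDH18A1 window is chr10:95656712-95656961 on the minus strand, with no capitals.
ASNS: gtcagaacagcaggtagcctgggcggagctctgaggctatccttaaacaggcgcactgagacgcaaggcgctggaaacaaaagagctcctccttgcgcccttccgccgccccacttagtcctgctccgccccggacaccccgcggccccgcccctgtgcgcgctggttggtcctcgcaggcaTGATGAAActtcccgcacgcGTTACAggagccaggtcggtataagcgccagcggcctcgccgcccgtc
GOT1: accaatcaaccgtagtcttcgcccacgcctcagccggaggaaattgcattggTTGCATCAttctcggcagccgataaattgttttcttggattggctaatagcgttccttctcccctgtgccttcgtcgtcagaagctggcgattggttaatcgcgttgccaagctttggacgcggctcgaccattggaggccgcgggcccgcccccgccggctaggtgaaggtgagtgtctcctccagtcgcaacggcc
ALDH18A1: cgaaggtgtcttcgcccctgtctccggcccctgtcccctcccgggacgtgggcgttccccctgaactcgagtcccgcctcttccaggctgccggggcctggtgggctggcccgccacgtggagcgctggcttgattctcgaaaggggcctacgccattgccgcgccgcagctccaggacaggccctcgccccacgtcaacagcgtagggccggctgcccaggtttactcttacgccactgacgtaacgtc

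In ASNS the TGATGAAA match began 68 bases before the start and GTTACA 48 bases before it. In GOT1 the match lay on the opposite strand, printed as TTGCATCA, and began 198 bases before the start. Of 35116 promoter windows of the same length, 3.14% held TGATGNAA and 5.59% held GTTACA. Neither motif was found in the windows of GLUL, GOT2 and ALDH18A1, or in the window of a second annotated ASNS start. A match describes letters and is not evidence of binding on these arrays.

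Each value is a log2 summary of a probe set as the authors deposited it. Values ran from 0.17 to 11.94, with array medians of 2.93 to 3.07 over the non-control probe sets. Since the scale has no known zero, a probe set's level was compared between arrays and not with the level of another gene. A probe set was tested if it lay above its own array's median on at least 3 of the 15 arrays, which kept 28897 probe sets. Of the 11 member probe sets, 9 passed, each of them above the median on all 15 arrays. Not tested were ASNS 241082_at, at 0.72 to 1.38, and GLUL 242281_at, at 1.99 to 2.50, both below the median on every array. Array 6 stood apart in the balance of 3' over 5' probe sets. That difference was 0.27 for ACTB and 0.24 for GAPDH there, against at most 0.03 and 0.02 elsewhere, and 2.72 for the poly-A spike-ins against 1.04 to 1.63 elsewhere. Arrays 5, 6 and 3 had the lowest mean correlation with the others (0.9874, 0.9897 and 0.9899, against 0.9911 to 0.9934). The hybridisation spike-ins averaged 7.75 ± 0.04 (SD, n = 3) with infliximab for 6 h and 7.38 ± 0.13 in untreated cells, with the other groups between. Every infliximab 6 h array (7.71 to 7.78) lay above every untreated array (7.23 to 7.46). A fit with this level as a covariate therefore cannot fully separate it from treatment at 6 h. Calls kept or lost under that covariate are a description.

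The labelled line was checked against marker genes, counted by how many lay above the array's median on all 15 arrays. These were 10 of 11 monocyte lineage markers, 6 of 7 epithelial, 3 of 5 T cell, 3 of 4 B cell, 1 of 6 fibroblast and 1 of 3 erythroid markers. CEBPA was among the first, KRT18 among the second, CD3D among the third and PAX5 among the fourth. The count was highest for the labelled lineage, whose list was also the longest, and each gene entered by its brightest probe set. Most epithelial, T cell and B cell markers were above the median too, so the check does not set the labelled lineage apart. A level on this scale does not show how much RNA a gene gave. The summed log2 level of the epithelial list was 40.37 in untreated cells, 43.13 and 43.44 with infliximab for 6 h and 24 h, and 37.92 and 38.11 with CDP870. That of the monocyte list was 72.69 in untreated cells, 74.74 and 77.16 with infliximab, and 73.16 and 72.59 with CDP870. The part of either shift in the results below was not tested. In RNA from whole cultures, a change in the share of cells and a change in RNA per cell cannot be told apart.

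**Figure D1:**
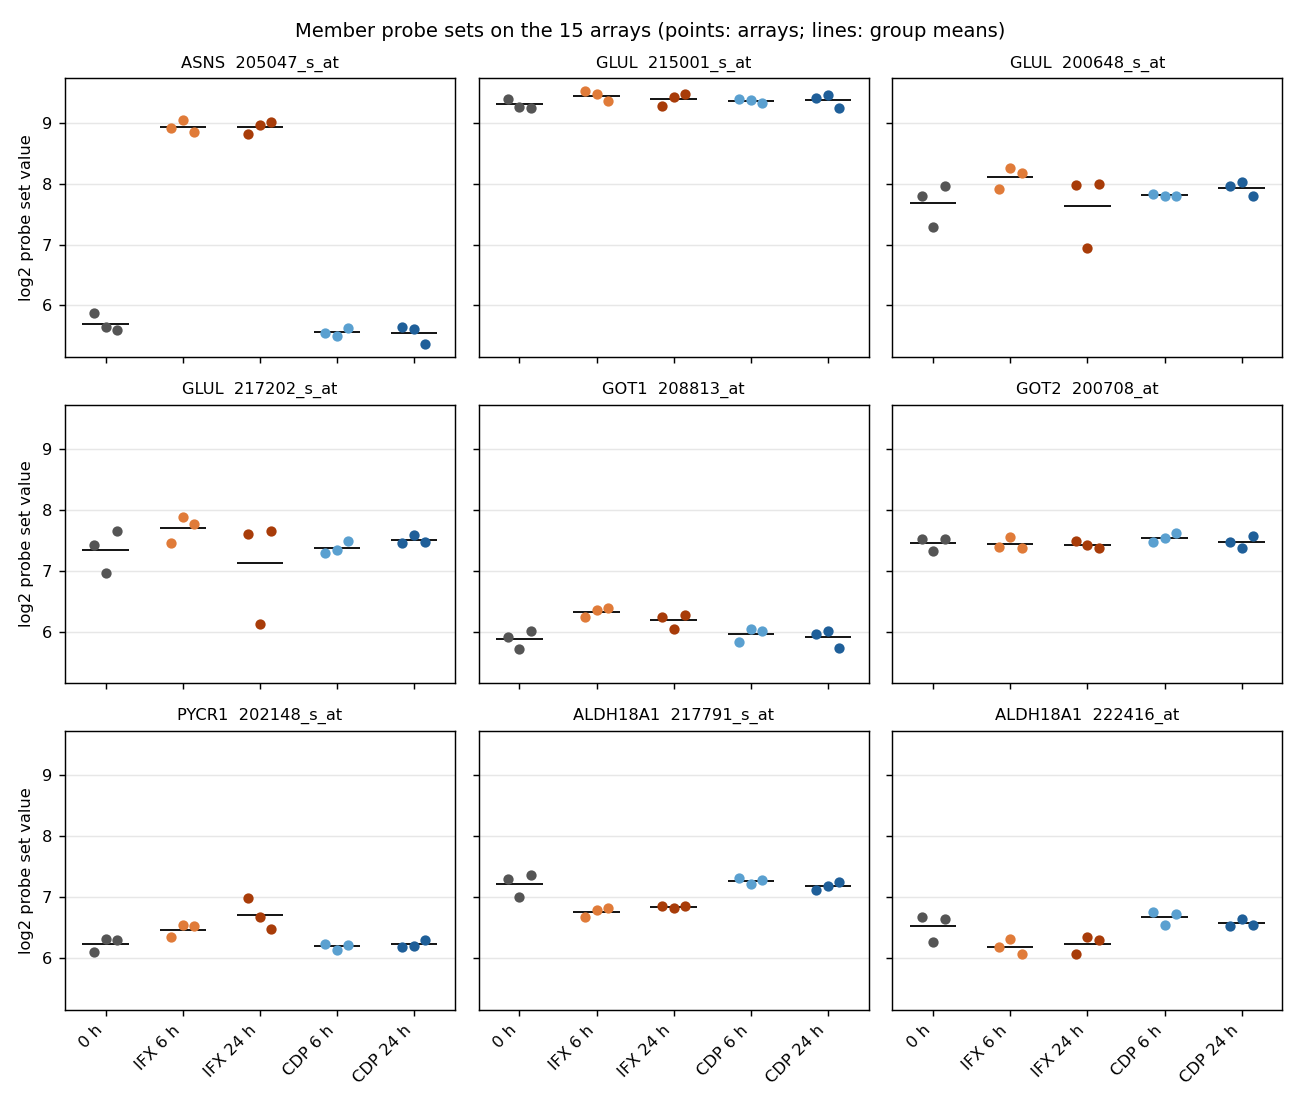
Log2 value of the 9 tested member probe sets on each array (points) with the group mean (line), on 1 shared axis, for untreated cells (0 h), infliximab (IFX) and CDP870 (CDP). ASNS lies at 8.82 to 9.04 on the 6 infliximab arrays and at 5.36 to 5.87 on the other 9, while the other probe sets differ by far less.

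ASNS stood high on every infliximab array and low on every other. The values were 5.87, 5.65 and 5.59 in untreated cells, 8.91, 9.04 and 8.85 with infliximab for 6 h, and 8.82, 8.97 and 9.01 for 24 h. With CDP870 they were 5.54, 5.50 and 5.63 for 6 h and 5.65, 5.61 and 5.36 for 24 h. The lowest infliximab array lay nearly 3 log2 units above the highest of the others. Both infliximab means were 8.93, against 5.70 ± 0.15 (SD, n = 3) in untreated cells. The difference from untreated cells was 3.23 ± 0.11 (log2, SE of the limma model) at 6 h and at 24 h, or 9.38-fold. Against CDP870 it was 3.38 at 6 h and 3.39 at 24 h, or 10.4-fold and 10.5-fold. Ranked by the difference from untreated cells, ASNS was 1 of 28897 probe sets at 6 h and 2 at 24 h. Under 17 alternative settings the 6 h difference ranged from 3.09 to 3.31 and the 24 h difference from 3.17 to 3.31. The untested ASNS probe set 241082_at, below the median on every array, showed no such split. Its means were 0.87 in untreated cells, 1.14 and 1.21 with infliximab for 6 h and 24 h, and 1.33 and 1.16 with CDP870.

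The order of the ASNS group means was infliximab 6 h and 24 h together, then untreated, CDP870 6 h and CDP870 24 h. The infliximab means were equal, with a 24 h minus 6 h difference of 0.00 ± 0.11 and a 95% interval of -0.23 to 0.23 (limma adjusted p = 1). CDP870 minus untreated was -0.15 at 6 h (95% interval -0.37 to 0.08, limma adjusted p = 0.997) and -0.16 at 24 h (95% interval -0.39 to 0.06, limma adjusted p = 0.974). A rise of ASNS under CDP870 by more than 0.08 is thus outside both intervals. The untreated and CDP870 arrays overlapped at both times.

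GOT1 means were higher with infliximab, with a difference of a much smaller size. Untreated cells gave 5.91, 5.71 and 6.02, infliximab 6.25, 6.35 and 6.39 at 6 h and 6.24, 6.05 and 6.27 at 24 h. CDP870 gave 5.83, 6.05 and 6.02 at 6 h and 5.97, 6.01 and 5.74 at 24 h. At both times the infliximab arrays all lay above the untreated arrays and above those of CDP870 at the same time. GOT1 exceeded its untreated level by 0.45 ± 0.11 at 6 h, or 1.37-fold, and by 0.31 ± 0.11 at 24 h, or 1.24-fold. The difference from CDP870 was 0.36 at 6 h and 0.28 at 24 h. With the spike-in level as a covariate the 6 h difference was 0.35, and without array 3 it was 0.365.

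GOT2, the mitochondrial form, differed from untreated cells by less than its standard error at both times. Its values were 7.52, 7.33 and 7.53 in untreated cells, 7.39, 7.55 and 7.38 with infliximab for 6 h, and 7.49, 7.43 and 7.37 for 24 h. With CDP870 they were 7.48, 7.54 and 7.62 for 6 h and 7.47, 7.38 and 7.57 for 24 h. All 5 groups overlapped. The difference from untreated cells was -0.02 ± 0.09 at 6 h and -0.03 ± 0.09 at 24 h, given as a description. The sign of a difference this small turned under several settings. Whether GOT1 and GOT2 differed in their response was not tested.

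The proline enzymes lay on opposite sides of their untreated levels. The mean of PYCR1, which makes proline, was higher with infliximab, and the means of ALDH18A1, which acts before it, were lower. PYCR1 values were 6.10, 6.31 and 6.30 in untreated cells, 6.34, 6.55 and 6.52 with infliximab for 6 h, and 6.99, 6.67 and 6.48 for 24 h. With CDP870 they were 6.24, 6.14 and 6.21 for 6 h and 6.18, 6.20 and 6.30 for 24 h. Each infliximab array lay above each untreated and each CDP870 array of the same time. PYCR1 exceeded its untreated level by 0.23 ± 0.12 at 6 h, or 1.18-fold, and by 0.48 ± 0.12 at 24 h, or 1.39-fold. Against CDP870 it was 0.27 at 6 h and 0.49 at 24 h.

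Array 5 held the highest PYCR1 value. Without it the 24 h difference was 0.34 from untreated cells and 0.35 from CDP870. Without arrays 3, 5 and 6, those with the lowest correlations, it was 0.28 and 0.25. Its 24 h minus 6 h difference under infliximab was 0.24 ± 0.12, with a 95% interval of -0.01 to 0.50 that includes 0 (limma adjusted p = 0.436).

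ALDH18A1 means were lower with infliximab on both of its probe sets. On 217791_s_at untreated cells gave 7.30, 7.01 and 7.36, infliximab 6.67, 6.79 and 6.82 at 6 h and 6.86, 6.83 and 6.85 at 24 h. CDP870 gave 7.31, 7.21 and 7.29 at 6 h and 7.12, 7.19 and 7.25 at 24 h. All 6 infliximab arrays lay below all 9 others. The difference from untreated cells was -0.46 ± 0.10 at 6 h, or 1.38-fold lower, and -0.38 ± 0.10 at 24 h, or 1.30-fold lower. Against CDP870 it was -0.51 at 6 h and -0.34 at 24 h. With the spike-in level as a covariate the 6 h differences were -0.40 and -0.47. Under 17 alternatives the 24 h difference ranged from -0.48 to -0.31 against untreated cells and from -0.37 to -0.30 against CDP870.

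The second ALDH18A1 probe set, 222416_at, was nearer to the spread of its groups. Untreated cells gave 6.68, 6.26 and 6.65, infliximab 6.18, 6.31 and 6.07 at 6 h and 6.07, 6.35 and 6.29 at 24 h. Untreated array 3 fell among the infliximab arrays. CDP870 gave 6.75, 6.54 and 6.72 at 6 h and 6.53, 6.64 and 6.55 at 24 h, all above infliximab. The difference from untreated cells was -0.34 ± 0.12 at 6 h and -0.29 ± 0.12 at 24 h. Without array 3 it was -0.48 and -0.43. Against CDP870 it was -0.48 at 6 h and -0.34 at 24 h.

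**Figure D2:**
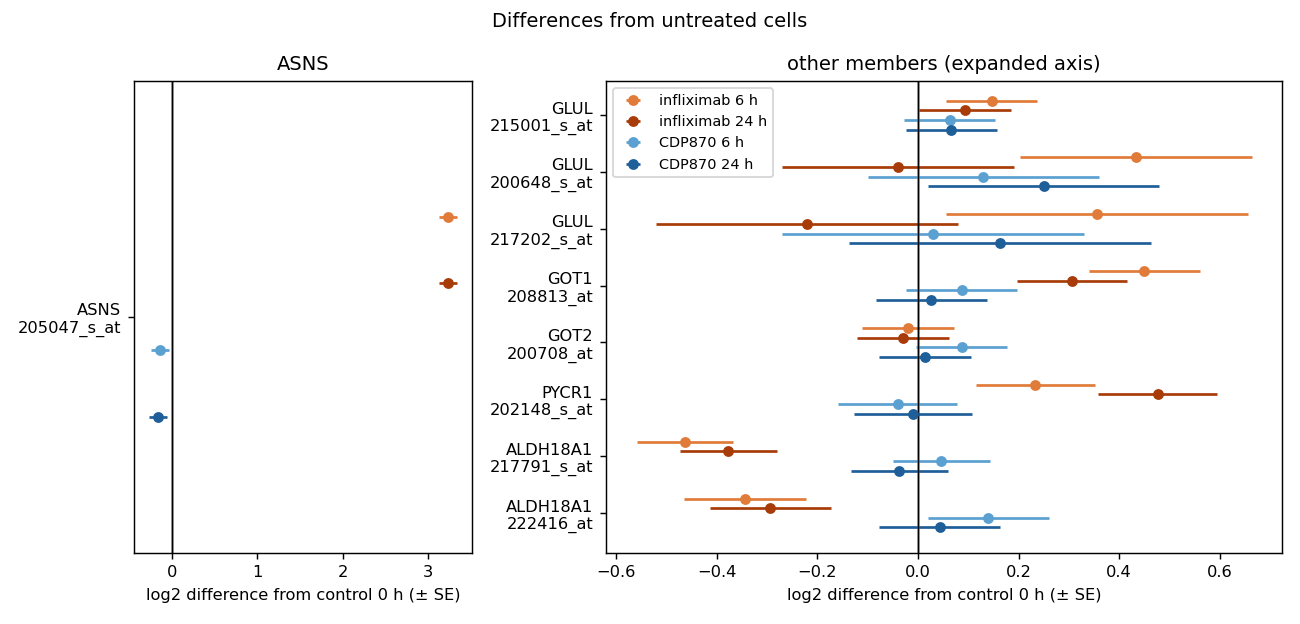
Log2 difference from untreated cells, with the standard error of the model, for infliximab and CDP870 at 6 h and 24 h; the left panel holds ASNS and the right panel the other 8 tested probe sets on an expanded axis. ASNS lies at 3.23 under infliximab and at -0.15 and -0.16 under CDP870, and in the right panel no probe set lies beyond 0.5.

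GLUL, the only enzyme that makes glutamine, was read by 3 tested probe sets, which did not give 1 answer. On 215001_s_at untreated cells gave 9.39, 9.26 and 9.25, infliximab 9.52, 9.47 and 9.35 at 6 h and 9.28, 9.42 and 9.48 at 24 h. The groups overlapped, and the difference was 0.15 ± 0.09 at 6 h and 0.09 ± 0.09 at 24 h. The 6 CDP870 arrays read 9.24 to 9.46 on this probe set. On 200648_s_at untreated cells gave 7.79, 7.29 and 7.96, infliximab 7.91, 8.26 and 8.17 at 6 h and 7.98, 6.95 and 7.99 at 24 h. The difference was 0.43 ± 0.23 at 6 h and -0.04 ± 0.23 at 24 h, and the CDP870 arrays read 7.80 to 8.03. On 217202_s_at untreated cells gave 7.42, 6.97 and 7.65, infliximab 7.45, 7.89 and 7.77 at 6 h and 7.60, 6.13 and 7.65 at 24 h. The difference was 0.36 ± 0.30 at 6 h and -0.22 ± 0.30 at 24 h, and the CDP870 arrays read 7.30 to 7.59. At 6 h and 24 h the differences from CDP870 were 0.08 and 0.03 on 215001_s_at and 0.30 and -0.29 on 200648_s_at. On 217202_s_at they were 0.33 and -0.38. These groups overlapped except on 200648_s_at at 6 h, where 37.7% of all tested probe sets did not overlap. The probe sets 200648_s_at and 217202_s_at were lowest on array 6, followed by array 3.

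Without array 6 the 24 h differences of these 2 probe sets from untreated cells were above 0, at 0.305 on 200648_s_at and 0.28 on 217202_s_at. On 200648_s_at, where the difference is a small part of its standard error, the sign also turned without array 2 (0.015) or array 4 (0.10). With the 3' minus 5' difference of ACTB and GAPDH as a covariate they were 0.21 and 0.15. The 24 h minus 6 h difference under infliximab was -0.47 ± 0.23 and -0.58 ± 0.30 (limma adjusted p = 0.437 and 0.464), and without array 6 it was -0.13 and -0.08. The gap between each probe set and 215001_s_at was -2.47 and -3.29 on array 6. On the other 14 arrays it lay between -1.97 and -1.18 and between -2.29 and -1.58, with array 3 at the low end of both.

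**Figure D3:**
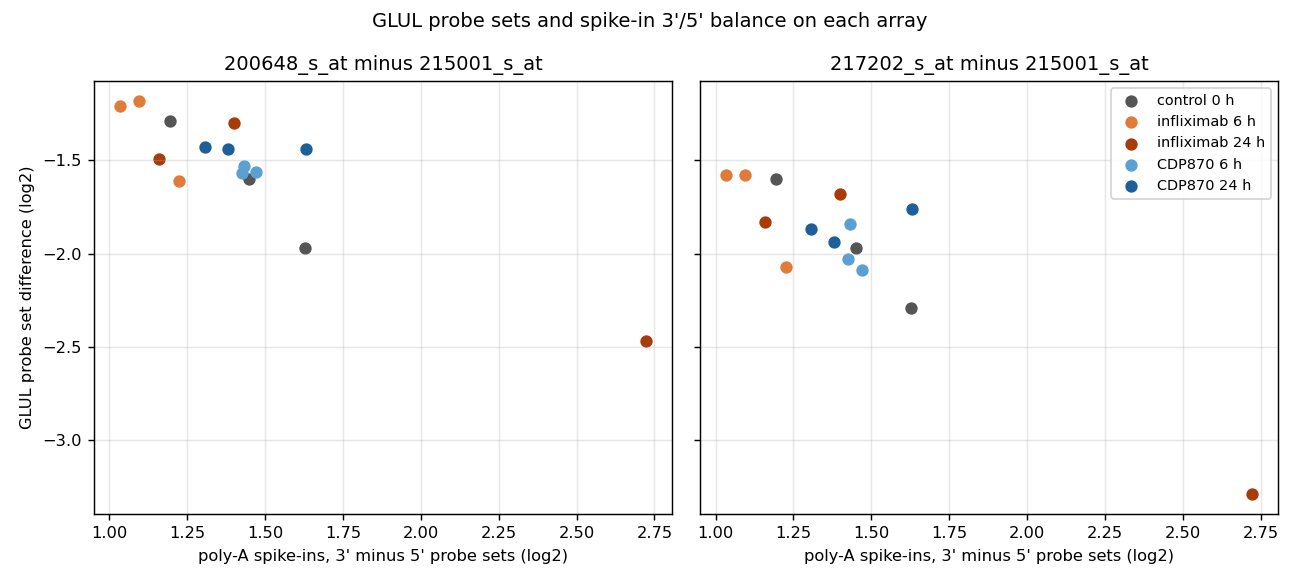
Difference of GLUL 200648_s_at (left) and 217202_s_at (right) from GLUL 215001_s_at on each array, against the mean 3' minus 5' difference of the poly-A spike-ins, all in log2. Array 6, infliximab for 24 h, lies alone at 2.72 on the horizontal axis and at -2.47 and -3.29 on the vertical axes.

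Counted over the 9 tested member probe sets, 2 were called higher and 1 lower (limma adjusted p under 0.05) with infliximab for 6 h against untreated cells, where 8.42% of all tested probe sets were called, 4.02% higher and 4.40% lower. At 24 h 2 were higher and 1 lower, against 6.57% of all (3.78% higher and 2.79% lower). Against CDP870, 1 was higher and 2 lower at 6 h, where 9.07% of all were called (5.10% higher and 3.98% lower), and 2 higher and 1 lower at 24 h, where 6.51% were (4.73% higher and 1.79% lower). The groups did not overlap for 4 of 9 at 6 h (29.5% of all) and 4 of 9 at 24 h (19.1%) against untreated cells, and for 6 of 9 (37.7%) and 5 of 9 (20.5%) against CDP870. ASNS was called in all 4 comparisons. The other calls at 6 h against untreated cells were GOT1 and ALDH18A1 217791_s_at, and against CDP870 both ALDH18A1 probe sets, and at 24 h they were PYCR1 and ALDH18A1 217791_s_at in both comparisons. So GOT1 was not called at 24 h or against CDP870, PYCR1 was not called at 6 h, ALDH18A1 222416_at was not called against untreated cells, and GOT2 and GLUL were called in none. GOT1 was, however, called at 6 h against CDP870 in 6 of 16 alternatives. With array weights PYCR1 was called at 6 h against untreated cells (0.28) and against CDP870 (0.27). ALDH18A1 222416_at was also called with weights at 6 h against untreated cells (-0.45). Each call of the main fit other than those of ASNS was lost under at least 1 alternative. GOT1 lost its call without array 3, 9 or 10 (0.365, 0.44 and 0.42), and PYCR1 without array 2, 4, 5 or 6 against untreated cells (0.41, 0.51, 0.34 and 0.50) and without 5, 11 or 12 against CDP870 (0.35, 0.46 and 0.47). ALDH18A1 217791_s_at lost its 24 h calls without array 2, 4, 5 or 6 against untreated cells (-0.34, -0.31, -0.38 and -0.37) and without any of the 6 arrays compared against CDP870 (-0.37 to -0.31). ALDH18A1 222416_at lost its 6 h call without array 8, 10, 14 or 16 (-0.48, -0.43, -0.44 and -0.46), and was called against untreated cells at both times without array 3. Nothing is read from these counts or from the calls of single genes, since infliximab results were known when the genes were chosen. The comparisons of both agents with untreated cells share the same 3 untreated arrays.

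The comparisons that did not guide the choice gave no member call. CDP870 minus untreated ranged from -0.15 to 0.14 over the 9 probe sets at 6 h and from -0.16 to 0.25 at 24 h. CDP870 24 h minus 6 h ranged from -0.10 to 0.13. Infliximab 24 h minus 6 h ranged from -0.58 to 0.24, and the interaction of agent and time from -0.71 to 0.21, with the GLUL probe sets that were low on array 6 at the bottom of both. In these 5 comparisons limma called 0 of 9 member probe sets, and 0% of all tested, and 0 of the 9 had an unadjusted p under 0.05. Over all 28897 probe sets, 1352, 1359, 1437, 3437 and 2642 had an unadjusted p under 0.05, in the order given. In infliximab 24 h minus 6 h the groups did not overlap for 1 of 9 members, ALDH18A1 217791_s_at (10.6% of all).

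Around the members, 6 lists of related genes were examined, each gene through the brightest of its tested probe sets (highest mean over the 15 arrays). Those of other cytosolic tRNA synthetases and of regulators with their kinases are not defined by the amino acids of the members. All lists too were drawn up with earlier results known. The tests below, adjusted over all probe sets, thus describe these genes and are no independent support for the lists. Of all 13607 tested genes, 4.52% were called higher and 5.70% lower with infliximab at 6 h, with a median difference of -0.05, and 4.75% and 3.45% at 24 h, with a median of -0.02. No gene of these lists was called under CDP870 against untreated cells, between the times of either agent, or in the interaction. Differences named below are from untreated cells at 0 h, where time in culture and treatment cannot be told apart. Counts with infliximab against CDP870 close each list, to be read beside the shares over all probe sets given above.

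Of the other enzymes of glutamate, glutamine, aspartate, asparagine, alanine, proline and ornithine, 12 of 18 were tested. Only ASS1 rose, and 11 did not pass. ASS1, argininosuccinate synthase, uses aspartate on the way to arginine. It rose by 0.91 ± 0.11 at 6 h (limma adjusted p = 0.000279) and by 0.92 ± 0.11 at 24 h (limma adjusted p = 0.000221). Its untreated arrays lay between 8.66 and 8.87, and its infliximab arrays between 9.45 and 9.85. The list's median difference was -0.08 at 6 h and -0.09 at 24 h. Against CDP870, 1 of the 12 was called higher and 0 lower at each time.

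Of the glutamine amidotransferases, which spend glutamine's amide nitrogen on nucleotides and amino sugars, 9 of 10 were tested. At 6 h 3 fell and 6 did not pass, with a list median of -0.193. PFAS, of purine synthesis, fell by 0.70 ± 0.14 (limma adjusted p = 0.00749). CTPS1, which makes CTP, fell by 0.56 ± 0.10 (limma adjusted p = 0.00333). CAD, which starts pyrimidine synthesis, fell by 1.03 ± 0.23 (limma adjusted p = 0.0131). With the spike-in level as a covariate none of the 3 passed at 6 h (-0.66, -0.56 and -0.81). CAD also did not pass without array 3 (-0.86) or array 9 (-0.84). At 24 h CTPS1 alone passed against untreated cells, at -0.41 ± 0.10 (limma adjusted p = 0.0227). It did not pass without array 2, 4, 5 or 7 (-0.37, -0.38, -0.39 and -0.345). When infliximab was compared with CDP870, 3 of the 9 were called lower at 6 h and 0 at 24 h, with 0 higher at either time.

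Carriers of these amino acids split. Of 23, 17 were tested, and at both times 5 rose, 1 fell and 11 did not pass, with list medians of -0.09 and -0.05. SLC7A11, which exports glutamate for cystine, rose by 1.58 ± 0.17 at 6 h (limma adjusted p = 6e-05). SLC38A1 and SLC38A2, sodium-coupled carriers of glutamine and alanine, rose by 1.20 and 0.69. SLC1A4 and SLC1A5, exchangers of small neutral amino acids, rose by 1.03 and 0.67. At 24 h the same 5 stood at 1.56, 1.10, 0.71, 1.39 and 0.94, in the order named, and SLC1A4 at 0.90 as the mean over its tested probe sets. SLC38A2 and SLC1A5 did not pass at 6 h with the spike-in covariate (0.54 and 0.77). The single carrier that fell, SLC36A4, a proline and tryptophan carrier, fell by 0.41 ± 0.10 at 6 h and 0.46 ± 0.10 at 24 h. Its 6 h call was lost without array 2, 4, 8 or 9 (-0.365, -0.39, -0.33 and -0.41) and its 24 h call without array 2 or 4 (-0.42 and -0.44). Compared with CDP870, 5 of the 17 were called higher at each time, with 1 lower at 6 h and 2 lower at 24 h.

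The tRNA synthetases that load the same amino acids were tested for 7 of 10 genes, and 3 rose at 6 h and 2 at 24 h, with list medians of -0.07 and 0.03. AARS1, for alanine, rose by 0.70 ± 0.11 at 6 h and 0.92 ± 0.11 at 24 h. EPRS1, for glutamate and proline, rose by 0.63 ± 0.11 and 0.54 ± 0.11. The 24 h call of EPRS1 was lost as the mean over its tested probe sets (0.42) and with only the arrays compared (0.54). NARS1, for asparagine, rose by 0.48 ± 0.12 at 6 h (limma adjusted p = 0.0202), and its 24 h difference of 0.35 did not pass (limma adjusted p = 0.0871). With the spike-in covariate none of the 3 passed at 6 h (0.77, 0.50 and 0.36). NARS1 also did not pass at 6 h without array 3, 8 or 9 (0.37, 0.45 and 0.45), and it passed at 24 h without array 5 (0.44). With CDP870 as the reference, 2 of the 7 were called higher at each time, with 1 lower at 6 h and 0 at 24 h.

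Of the other cytosolic synthetases 14 of 15 were tested. At 6 h 8 rose, 3 fell and 3 did not pass, and at 24 h 7 rose and 2 fell, with list medians of 0.435 and 0.43. WARS1, for tryptophan, rose by 1.59 ± 0.09 at 6 h (limma adjusted p = 1.82e-07), CARS1, for cysteine, by 1.13 ± 0.09, and GARS1, for glycine, by 1.11 ± 0.08. SARS1 and YARS1, for serine and tyrosine, rose by 0.75 and 0.73, YARS1 by 0.42 as the mean over its tested probe sets. FARSA, a subunit of the phenylalanine enzyme, fell by 0.75 ± 0.10 (limma adjusted p = 0.000434). Relative to CDP870, 7 of the 14 were called higher at each time, with 2 lower at 6 h and 1 at 24 h.

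Of the regulators of ASNS transcription and their kinases all 9 were tested, and at both times 6 rose and 3 did not pass, with list medians of 0.87 and 0.88. ATF4 lay between 9.47 and 9.64 in untreated cells, between 10.34 and 10.52 on the 6 infliximab arrays, and between 9.52 and 9.60 on the 6 CDP870 arrays. It rose by 0.87 ± 0.08 at 6 h (limma adjusted p = 1.7e-05) and by 0.88 ± 0.08 at 24 h, or 1.82-fold and 1.84-fold. ATF5, a relative of ATF4, rose by 1.99 ± 0.16 and 2.50 ± 0.16, and by 0.97 and 1.30 as the mean over its tested probe sets. TRIB3, an ATF4 target that feeds back on it, rose by 1.38 and 1.49. DDIT3, known as CHOP, rose by 1.27 and 1.39. CEBPB and CEBPG, partners at the ASNS promoter, rose by 0.88 and 0.62 at 6 h and by 0.95 and 0.77 at 24 h, CEBPG not with the spike-in covariate at 6 h (0.55). The 3 that did not pass, named here after their values were seen, were ATF3, EIF2AK3 and EIF2AK4, at 0.07, -0.04 and -0.06 at 6 h. RNA levels do not measure the activity of a kinase. In the comparison with CDP870, 6 of the 9 were called higher and 0 lower at each time.

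**Figure D4:**
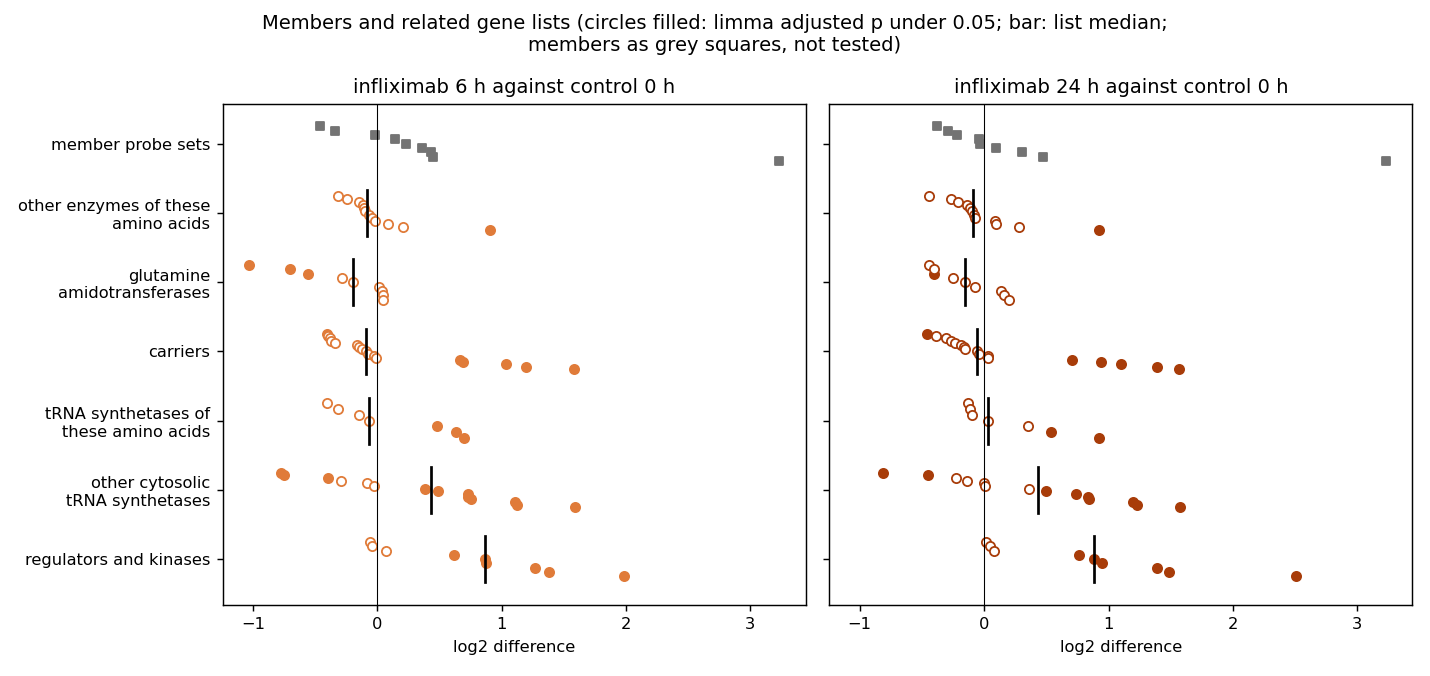
Log2 difference from untreated cells with infliximab for 6 h (left) and 24 h (right), 1 point per gene for the 6 lists and per probe set for the members (grey squares, no test); filled circles passed limma's adjusted p of 0.05 and bars are list medians. The regulators have medians of 0.87 and 0.88, the other cytosolic synthetases 0.435 and 0.43, and the medians of the other 4 lists lie between -0.193 and 0.03.

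The probe sets most like ASNS across the 15 arrays were ranked by Pearson correlation, given as a description, since all arrays share the split between infliximab and the rest. They were DDIT4 (0.9957), PHGDH (0.9947), PSAT1 (0.9933), WARS1 (0.9933) and GARS1 (0.9929). DDIT4 is an inhibitor of mTORC1 that stress induces, and PHGDH and PSAT1 are enzymes of serine synthesis. Against untreated cells the 6 h difference was 2.63 ± 0.10 for DDIT4, 1.60 ± 0.10 for PHGDH and 1.86 ± 0.09 for PSAT1. At 24 h it was 2.71, 1.57 and 1.84. For PYCR1 the most alike were SEMA4A (0.9778) and ITGB2 (0.965), and for ALDH18A1 217791_s_at they were ZC3HC1 (0.9545) and PPP2R2A (0.9529). Each member entered by its brightest tested probe set. The group means of GLUL 215001_s_at, GOT1 and GOT2 spanned under 0.5 on the log2 scale, and no likeness was sought for them.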

How the data were processed

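RNA of 15 THP-1 cultures was measured on Affymetrix arrays with 54675 probe sets, of which 62 controls were left out of tests. The authors deposited log2 values, made with GCRMA and GCOS 1.3.0 per the submitters' processing notes, which give no role, order or build. Symbols came from the platform annotation, updated through RefSeq (GRCh38.p14) by Entrez number. Of the non-control probe sets 41091 had 1 symbol, 1801 several and 11721 none, and 41037 matched RefSeq.

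For the 28897 tested probe sets, limma 3.58.1 (R 4.3.3) estimated the 5 group means together over the 15 arrays, after the script was tested on simulated data. P-values are two-sided with Benjamini-Hochberg adjustment inside each comparison, and a call is an adjusted p under 0.05. A fold is the log2 difference raised back to the linear scale, and ± is its standard error unless SD is named. Only 3 arrays per group limit the precision. Figures used matplotlib 3.10.9 in Python 3.11.15.

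Members and lists were chosen with earlier results of these data known. All members are named. Of a list, called genes are named, up to 6 by smallest p at 6 h of infliximab, with ATF4 always given. Likeness, over each member's tested probe set of highest mean, is named for 5 genes with ASNS and for 2 with each other member where that probe set's group means span at least 0.5. Alternatives covered the filter (none, or the 60th percentile), normalization, arrays in the fit, weights, variance prior, spike-in covariate, gene means and left-out arrays. The 3' minus 5' covariate was added after seeing the data.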

Additional observations from a re-analysis of the deposited data

How the results depend on the processing

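The labels do not say whether arrays of different groups were paired, so no paired analysis was made. Of the counts of member probe sets called (3 in each infliximab comparison), that of infliximab 24 h was 1 against untreated cells and 1 against CDP870 with only the arrays compared, and 1 against CDP870 without arrays 3, 5 and 6. At 6 h array weights gave 5 in both comparisons and the spike-in covariate 1 in both. With single arrays left out, the 24 h count was 1 without array 2, 4, 5 or 6 against untreated cells. It was also 1 without array 5, 11 or 12 against CDP870. Without array 3 the 24 h count against untreated cells gained ALDH18A1 222416_at (-0.43). The same settings moved the calls over all tested probe sets, from 2432 to 4588 with weights and 181 with the covariate at 6 h against untreated cells, from 2622 to 6326 and 751 against CDP870, and from 1899 to 200 and 1882 to 331 at 24 h with only the arrays compared. The cause was not tested.

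Over the called differences of single probe sets, members and listed genes, 1019 recomputed values kept their call and 82 lost it, and no called value turned in sign. Of those not called, 15 recomputed values became calls. Uncalled values that turned, all against untreated cells, were GOT2 at 6 h (0.088 with the spike-in covariate, -0.085 to 0.015 with single arrays left out, above 0 without array 2, 4, 8 or 10) and at 24 h (0.02 with arrays centred on their medians, 0.0074 with the spike-in covariate, -0.095 to 0.005 with single arrays left out, above 0 without array 4), GLUL 200648_s_at at 24 h (0.01 with arrays centred, 0.21 with the 3' minus 5' covariate, -0.235 to 0.305 with single arrays left out, above 0 without array 2, 4 or 6, 0.115 without arrays 3, 5 and 6), GLUL 217202_s_at at 24 h (0.15 with that covariate, -0.48 to 0.28 with single arrays left out, above 0 without array 6, 0.115 without arrays 3, 5 and 6), GLUL 215001_s_at at 24 h (-0.056 as the mean over GLUL's tested probe sets) and CAD at 24 h (0.026 with weights, -0.31 to 0.15 with single arrays left out, above 0 without array 3 or 7). ASNS kept its direction and call under infliximab in every alternative run. All these runs reuse the arrays from which the genes were chosen, so they describe the values and are no independent support.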
